A study of Mus musculus with 4 samples.

Results

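The genes described here are 10 transcription regulators of spermatocytes and spermatids, Crem, Fhl5, Rfx1, Rfx2, Rfx3, Mybl1, Tcfl5, Tbpl1, Brdt and Pou5f2. They were taken by gene symbol from a table of 25265 genes, and all 10 were present and counted deeply enough to be tested. RNA was extracted from whole testes of C57BL/6 mice on postnatal day 56, depleted of ribosomal RNA and sequenced from directional libraries. The groups were 2 libraries labelled control and 2 labelled Ythdf2-vKO, a genotype that the series title describes as a germ cell-specific mutation of Ythdf2. YTHDF2 binds RNA carrying N6-methyladenosine and promotes its decay. The labels do not give the Cre driver, the deleted segment, the alleles that the controls carry, or whether each library came from its own animal, so p-values measure the spread between these libraries, which may be technical.

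Male germ cells pass through a fixed series of transcription programmes. In pachytene spermatocytes MYBL1 (A-MYB) switches on meiotic and piRNA-pathway genes, and TCFL5 acts in the same stage. RFX2 activates genes of the cilium and the sperm flagellum. In round spermatids CREM, with its coactivator FHL5 (also called ACT), and the TBP-related factor TBPL1 drive genes of the late haploid programme such as protamines and transition proteins. BRDT is a testis-specific bromodomain protein that binds acetylated histones and is needed for their removal from spermatid chromatin.

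Short promoter stretches are shown first because 3 of the regulators belong to the RFX family and share a DNA element, the X-box, that these factors bind. RefSeq promoter windows, from 250 bases before to 50 after the start in GRCm38.p6, were matched by symbol for 8 of the 10 genes. Crem and Mybl1 had no window, so their promoters were not searched. Fhl5 had 2 windows and the other genes 1 each. An X-box arm, written GTTGCC or GTTGCT and searched on both strands, occurred in 3 of these 8 genes, which were Rfx1, Rfx2 and Rfx3, and in 25.1% of all 32851 windows. The lines below run 5′ to 3′ on the gene's strand with the arms in capitals. They come from chr8:84066822-84066851 (plus strand) for Rfx1, chr17:56831103-56831132 (minus strand) for Rfx2 and chr19:28011121-28011150 (minus strand) for Rfx3.
Rfx1: gggtgggtAGCAACaGTTGCCccggtgagg
Rfx2: tggtaaccGTTGCCgggcgcaacgccccgc
Rfx3: tgagttatAGCAACcGTTGCCttgtgaatc
In Rfx1 and Rfx3 an arm on the opposite strand is followed after 1 base by an arm on the gene's own strand. The arms of such a pair are divergent, pointing away from each other. The search was for single arms, and a full X-box was not searched for, so these pairs are not called X-boxes. Windows with such a pair, a feature chosen after it was seen in these genes, numbered 10 of 32851 (0.0304%), those of Rfx1 and Rfx3 included. The matches describe the letters and not bound sites.

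MYB-type matches were examined because MYBL1 belongs to this family. The letters TAACNG or CAACNG on either strand were present in 6 of the 8 genes, against 49.7% of all windows. Fhl5 was counted through 1 of its 2 windows. Windows with at least 4 matches made up 1.22% of all, and Tcfl5 and Rfx2 were the regulators that had 4. This cutoff is the highest number seen in any of the 8 genes, so the share is a description. The stretches below hold these matches in capitals. They lie at chr2:180642702-180642841 (minus strand) for Tcfl5 and chr17:56831109-56831198 (minus strand) for Rfx2, where the last pair of matches overlaps and also overlaps the X-box arm.
Tcfl5: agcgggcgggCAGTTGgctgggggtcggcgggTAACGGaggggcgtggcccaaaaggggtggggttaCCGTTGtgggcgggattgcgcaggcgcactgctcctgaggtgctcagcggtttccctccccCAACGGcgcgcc
Rfx2: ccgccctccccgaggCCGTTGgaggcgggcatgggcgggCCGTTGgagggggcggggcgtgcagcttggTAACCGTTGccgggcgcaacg
The full cAMP response element TGACGTCA, to which CREM binds, was in 0 of the 8 genes, which leave out Crem, and in 1.79% of all windows. Its shorter core TGACG was found in 2 of the 8, Rfx1 and Rfx2, and in 20.8% of all windows. TCFL5's E-box-like motif CACGCG was in 1 of the 8, Tcfl5 itself, and in 9.27% of all windows. TATAAA and the octamer ATGCAAAT, the motif of POU factors, were in 0 of the 8, and in 13.6% and 1.74% of all windows. Each motif was searched on both strands.

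Control libraries held 24862518 and 29561182 counts in all, and vKO-labelled libraries 26298245 and 26265700. The targeted gene, Ythdf2, was counted 1193 and 1604 times in control, against 1774 and 1807 in vKO-labelled libraries (log2 fold change 0.35, SE 0.13, edgeR adjusted p 0.238). Its count was not lower there, so every direction given here refers to the label alone. Control replicate 2 stood apart by GC content, with lower values for GC-rich transcripts. Its deviation from the mean of the libraries had a Spearman correlation of -0.399 with GC content over 17900 genes, next to 0.0234 in control replicate 1 and 0.254 and 0.188 in vKO-labelled libraries, as a description. Of 21132 genes tested, 59 were higher and 24 lower at an adjusted p under 0.05. With library totals alone as scaling these numbers were 181 and 37, and with an offset for GC content 75 and 71. Testis markers were present in each library: no listed marker had 0 counts throughout, and the summed level of 9 elongating spermatid genes ran from 11490 to 14870 CPM (counts scaled to library size, with TMM factors).

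None of the 10 regulators passed the test between the groups. With edgeR's quasi-likelihood fit and Benjamini-Hochberg adjustment over all genes, 0 of 10 were called in either direction, against 0.393% of all genes tested (0.279% higher and 0.114% lower). At an unadjusted p under 0.05 there were 2, Fhl5 and Pou5f2, both with lower values, against 14.1% of all genes tested (7.65% higher and 6.47% lower). A DESeq2 Wald test called 0 of the 10, with 1 at an unadjusted p under 0.05. The authors' deposited values for the 10 matched those of this Wald test to the digits kept, so they are the same result and not a second test. They called 0 of the 10, against 1.32% of the genes in that table, with an unadjusted p under 0.05 for Fhl5 alone. The groups did not overlap in 5 of the 10 genes, each lower in the libraries labelled vKO (Fhl5, Rfx3, Mybl1, Tbpl1 and Pou5f2), and in 0 genes on the higher side. Over all genes tested the groups did not overlap in 45.3% of genes (22.6% of genes lower, 22.7% higher). Among the 4598 genes at least as abundant in control as the lowest of the regulators, 0.174% were called, 16.5% had an unadjusted p under 0.05, and in 49.8% the groups did not overlap. The log2 fold change was below 0 for 8 of the 10, with a median of -0.10, and below 0 for 49.7% of all genes tested.

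The 95% intervals of the 10 fold changes, taken from the same fit and not adjusted for the number of genes, reached no lower than 0.604 (Pou5f2) and no higher than 1.64 (Rfx1). In whole testis, fewer cells of a type and less RNA per cell cannot be told apart.

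**Figure D1:**
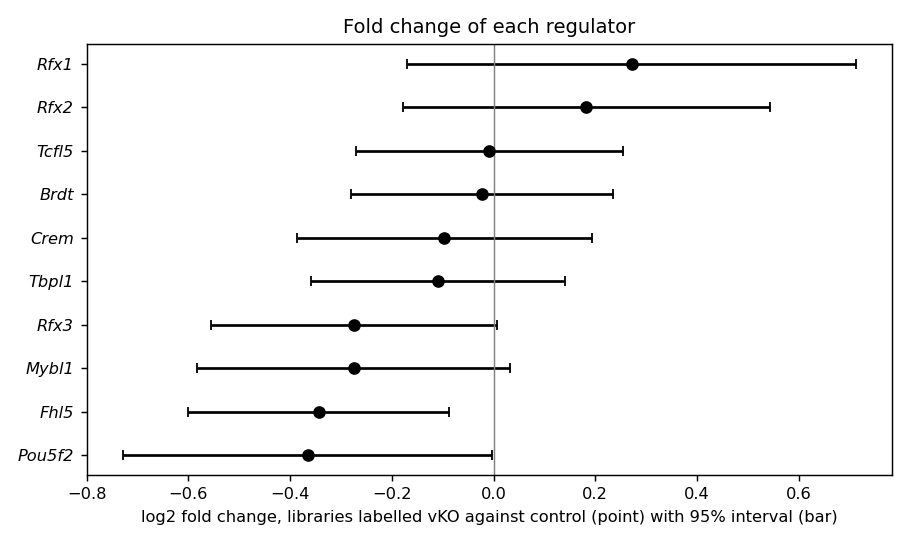
Fold change of each regulator on the log2 scale, libraries labelled vKO against control, with points for the edgeR estimate and bars for its 95% interval. The estimates run from -0.37 for Pou5f2 to 0.27 for Rfx1, and the bars of Fhl5 and Pou5f2 lie below 0.

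Levels of different genes were set in order as RPKM, reads per kilobase of annotated exon scaled to library size. Fhl5 was the most abundant, between 169 and 229 RPKM over the 4 libraries, followed by Tcfl5 (129 to 149.5) and Tbpl1 (89.1 to 99.55). The ranges of these 3 did not overlap with each other or with the genes below them. Rfx2 (43.6 to 64.5) overlapped with both Brdt (53.5 to 59.6) and Crem (37.6 to 47.6), so its place beside them is not fixed. Brdt was above Crem without overlap. Pou5f2 (23.5 to 39.3) overlapped with Crem above it and with Rfx1 (15.25 to 25.0) below it. Mybl1 (10.5 to 15.1) and Rfx3 (4.11 to 5.32) were the lowest, with ranges separate from each other and from the rest. With the length of the longest transcript in place of all exons, Crem moved from position 6 to 5 ahead of Brdt, and Rfx1 from position 8 to 7 ahead of Pou5f2. The means of Fhl5 and Tcfl5 were then 198.5 and 197.7 RPKM, in the same order but with overlapping ranges. On this length Tcfl5 was above Fhl5 in both vKO-labelled libraries (200.5 against 168.8 and 193.7 against 181.1 RPKM). In both control libraries Fhl5 was above Tcfl5. Tbpl1 (101.5 to 113) and Rfx2 (76.9 to 114) then overlapped as well.

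**Figure D2:**
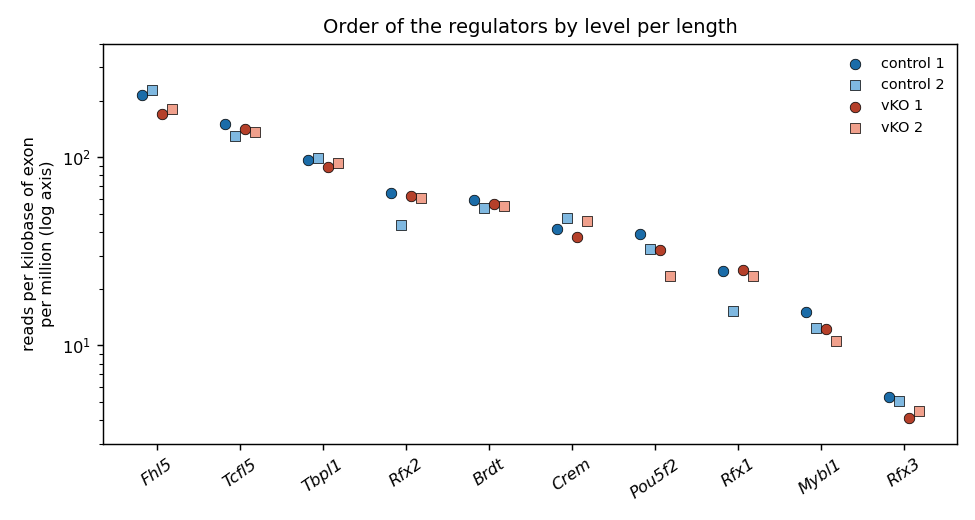
Level of each regulator in every library in RPKM, on a log axis, with colours for the groups and shapes for the replicates. The genes run from Fhl5 (169 to 229) down to Rfx3 (4.11 to 5.32), and the gap between these exceeds the spread of any gene over the libraries.

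Crem and Fhl5 act together in round spermatids, where CREM binds DNA and FHL5 is a LIM-domain coactivator. Crem (ENSMUSG00000063889, chromosome 18, 39 annotated transcripts) stood at 246 and 281 CPM in control, against 222 and 271 CPM in vKO-labelled libraries. The groups overlapped, and replicate 2 was the higher library in both. The mean was 263 ± 24.9 against 246 ± 34.8 CPM (SD, n = 2 each), a fold change of 0.935 with a 95% interval of 0.765 to 1.14 (edgeR adjusted p 0.811). The counts sum all transcripts of the gene, so activator and repressor forms of CREM are not separated. Fhl5 (ENSMUSG00000028259, chromosome 4, 25199908 to 25242876, minus strand) stood at 252 and 268 CPM in control, against 198 and 212 CPM in vKO-labelled libraries. Both control libraries were above both others, with means of 260.1 ± 10.95 and 205 ± 10.2 CPM. The fold change was 0.788 (95% interval 0.66 to 0.941), with an unadjusted p of 0.0124 and an edgeR adjusted p of 0.222. Without control replicate 1 the log2 fold change of Fhl5 was -0.39, and across all 13 alternatives it lay between -0.40 and -0.28.

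Genes known to depend on CREM were followed in a list of 9, of which 0 were called in either direction. Of these 9, 8 had a log2 fold change below 0, with a median of -0.19, and 3 had an unadjusted p under 0.05, all lower. Over all genes tested these shares were 49.7% and 6.47%. Tnp1, a transition protein that replaces histones, stood at 580 and 467 CPM in control, against 404 and 396 CPM in vKO-labelled libraries (log2 fold change -0.39, SE 0.13, edgeR adjusted p 0.209). Prm2, a protamine and by its control mean per kilobase the most abundant of the list, stood at 2351 and 1970 CPM in control, against 1729 and 1817 CPM in vKO-labelled libraries (log2 fold change -0.29, adjusted p 0.318). The groups did not overlap for either gene, and control replicate 1 was the highest library for both. The median of the list was -0.30 without control replicate 2 and -0.10 without control replicate 1. Summed markers of elongating spermatids, which share 6 genes with this list, stood at 14870 and 12370 CPM in control, against 11490 and 11840 CPM in vKO-labelled libraries, and their part in these values was not tested. Among 5 partners of CREM and FHL5 there were 0 calls and a median of 0.20, which was 0.00346 without control replicate 2 and 0.41 without control replicate 1. Ep300, a histone acetyltransferase and coactivator, had a log2 fold change of 0.35 (adjusted p 0.342), and Kif17, a kinesin that binds FHL5, had one of 0.07 (adjusted p 0.913).

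Rfx1, Rfx2 and Rfx3 encode winged-helix factors that bind the X-box, and their log2 fold changes differed in sign. Rfx2 (ENSMUSG00000024206, chromosome 17, 56775897 to 56831013, minus strand) stood at 471 and 319 CPM in control, against 454 and 442 CPM in vKO-labelled libraries. Rfx1 (ENSMUSG00000031706, chromosome 8, 84066834 to 84096992, plus strand) stood at 159.5 and 98.1 CPM in control, against 161 and 149.8 CPM in vKO-labelled libraries. In both genes control replicate 2 was far below the other 3 libraries, which lay close together, and the groups overlapped. The fold change was 1.135 for Rfx2 (95% interval 0.884 to 1.46, edgeR adjusted p 0.684) and 1.21 for Rfx1 (0.889 to 1.64, adjusted p 0.599).

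Control replicate 2 decided both values. Without control replicate 1, so that control replicate 2 alone stood for control, the log2 fold change was 0.66 for Rfx1 and 0.49 for Rfx2. Without control replicate 2 it was -0.04 for Rfx1 and -0.07 for Rfx2. The GC content of the longest transcript was 60.8% for Rfx1 and 54.0% for Rfx2, against a median of 48.9% for all genes tested. With an offset for GC content the log2 fold changes were 0.06 and 0.09.

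Rfx3 (ENSMUSG00000040929, chromosome 19, 27761721 to 28011166, minus strand) has a transcript of 40.2% GC. It stood at 58.7 and 55.6 CPM in control, against 45.4 and 49.1 CPM in vKO-labelled libraries. The groups did not overlap, and the means were 57.15 ± 2.19 and 47.2 ± 2.61 CPM. Its fold change of 0.827 (95% interval 0.68 to 1.004) had an unadjusted p of 0.05455 and an edgeR adjusted p of 0.366. Its log2 fold change stayed between -0.33 and -0.21 over 13 alternatives, none of which called it.

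**Figure D3:**
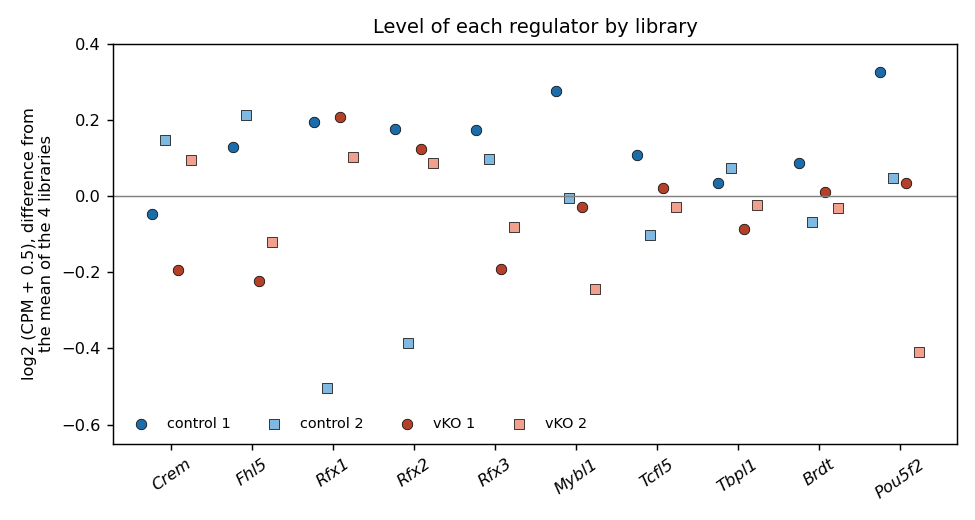
Difference of each regulator from its mean over the 4 libraries, on the scale of log2 (CPM + 0.5), by library. Control replicate 2 lies at -0.50 for Rfx1 and -0.39 for Rfx2, and replicate 2 of the libraries labelled vKO at -0.41 for Pou5f2.

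Cilium and testis genes related to RFX factors formed a list of 11, with 0 called. Of these, 9 had a log2 fold change below 0, the median was -0.15, and 1 had an unadjusted p under 0.05, on the lower side. For all genes tested the shares were 49.7% below 0 and 6.47% lower at that p. Spag6l, which encodes a protein of the axoneme's central pair, had means of 422 and 348 CPM and a log2 fold change of -0.28 (SE 0.12, edgeR adjusted p 0.303). Rsph1, a radial spoke protein and the most abundant of the list per kilobase, had a log2 fold change of -0.15 (adjusted p 0.617). The median stayed between -0.20 and -0.08 over the alternatives.

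Paralogs of the regulators were followed as well. Rfx8 had the smallest p of the regulators' 21 listed paralogs, of which 19 were tested and 0 called. It stood at 88.3 and 87.9 CPM in control, against 54.1 and 64.9 CPM in vKO-labelled libraries, so that the groups did not overlap. Its log2 fold change was -0.57 (SE 0.13, edgeR adjusted p 0.0991). Fhl4, a paralog of Fhl5 and the most abundant of these genes per kilobase, had a log2 fold change of -0.24 (adjusted p 0.3525).

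Mybl1 and Tcfl5 belong to the pachytene programme. Mybl1 (ENSMUSG00000025912, chromosome 1, 9667415 to 9700209, minus strand) stood at 81.5 and 66.9 CPM in control, against 65.9 and 56.7 CPM in vKO-labelled libraries. The groups were separated by about 1 CPM, which is less than the difference between the replicates of either group. Mybl1 had a fold change of 0.826 (95% interval 0.668 to 1.02, edgeR adjusted p 0.418). Its log2 fold change ranged from -0.41 without control replicate 2 to -0.13 without control replicate 1.

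Tcfl5 (ENSMUSG00000038932, chromosome 2, 180621956 to 180642708, minus strand) encodes a basic helix-loop-helix protein. It stood at 473 and 409 CPM in control, against 446 and 431 CPM in vKO-labelled libraries, and both latter values lay between the control values. The fold change was 0.994 with an interval of 0.829 to 1.19 (edgeR adjusted p 0.987). Its sign depended on the setting, with a log2 fold change of -0.16 under the GC offset and 0.06 with library totals alone.

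Pachytene genes related to MYBL1 numbered 11, with 0 called, 6 below 0 and a median log2 fold change of -0.000367, next to 0.00265 for all genes tested. The sign of this median turned in 4 of 13 alternatives. An unadjusted p under 0.05 was found for 2, both lower, against 6.47% of all genes tested on that side. Ccna1, the germline cyclin A, stood at 167 and 147 CPM in control, against 118 and 122 CPM in vKO-labelled libraries, without overlap (log2 fold change -0.38, SE 0.12, edgeR adjusted p 0.196). Mael, a piRNA-pathway gene and the most abundant of the list per kilobase, had a log2 fold change of -0.15 (adjusted p 0.604). Summed spermatocyte markers stood at 2524 and 2249 CPM in control, against 2743 and 2420 CPM in vKO-labelled libraries, so these groups overlapped. Gene by gene, 6 of these 9 markers had a log2 fold change below 0, with a median of -0.10, and 0 were called. The groups did not overlap for 3 on the lower side and 1 on the higher side, against 22.6% and 22.7% of all genes tested.

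Tbpl1 encodes a relative of the TATA-binding protein that works at promoters without a TATA box. Tbpl1 (ENSMUSG00000071359, chromosome 10, 22703879 to 22731938, minus strand) stood at 317 and 326 CPM in control, against 291.5 and 304 CPM in vKO-labelled libraries. The groups did not overlap, but the fold change of 0.927 (95% interval 0.78 to 1.10) was small and did not pass (edgeR adjusted p 0.735). Its tagwise biological coefficient of variation, 9.67%, was lower than that of most genes, for which the median was 13.97%. Of 10 listed relatives and basal factors, 9 were tested and 0 called, with 8 below 0 and a median of -0.08, which was -0.20 without control replicate 1, -0.05 without control replicate 2, -0.02 with the GC offset and -0.01 with library totals alone. Tbp itself stood at 149.9 and 149.0 CPM in control, against 128 and 117 CPM in vKO-labelled libraries, without overlap (log2 fold change -0.29, SE 0.12, adjusted p 0.298). Gtf2a1l, the germ cell form of a TFIIA subunit, had a log2 fold change of -0.17 (adjusted p 0.544).

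Brdt (ENSMUSG00000029279, chromosome 5, 107331159 to 107387058, plus strand) stood at 305 and 273.5 CPM in control, against 289 and 280.5 CPM in vKO-labelled libraries. The latter lay between the control values, as for Tcfl5. Brdt had a fold change of 0.985 with an interval of 0.824 to 1.18 (edgeR adjusted p 0.964). Its relatives and genes of histone removal formed a list of 8, with 0 called, 5 below 0 and a median of -0.05, which became 0.01 with library totals alone. Chd5, a remodeller of spermatid chromatin, had a log2 fold change of 0.14 (adjusted p 0.84).

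Pou5f2 is a POU-domain gene of male germ cells with a single exon (ENSMUSG00000093668, chromosome 13, 78024902 to 78026295, plus strand). It stood at 54.8 and 45.1 CPM in control, against 44.7 and 32.7 CPM in vKO-labelled libraries. The groups came within 1 CPM of each other, and replicate 2 of the libraries labelled vKO was the lowest by far. The fold change was 0.776 (95% interval 0.604 to 0.998), with an unadjusted p of 0.0485 and an edgeR adjusted p of 0.35. Without that library the log2 fold change was -0.16, and without control replicate 2 it was -0.50. The gene lies inside Fam172a on the same strand and shares no exon with it, and Fam172a had 283 to 417 counts per library. Reads from unspliced Fam172a RNA over this exon could be counted for Pou5f2 whatever the use of strand, and their part was not tested.

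**Figure D4:**
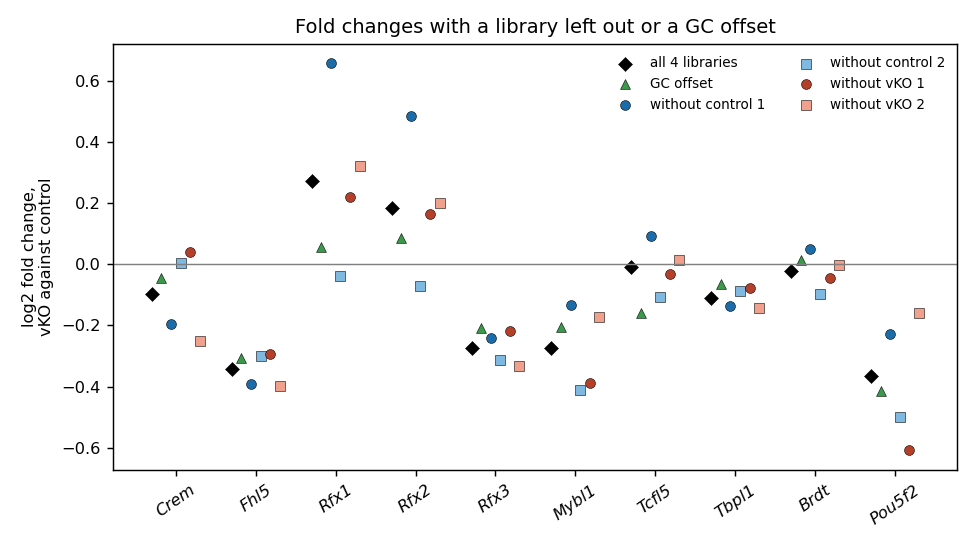
Log2 fold change of each regulator with all 4 libraries, with a GC offset, and with each library left out. Rfx1 runs from -0.04 to 0.66. Pou5f2 (-0.61 to -0.16), Fhl5 (-0.40 to -0.29), Tbpl1 (-0.14 to -0.06), Rfx3 (-0.33 to -0.21) and Mybl1 (-0.41 to -0.13) stay below 0 in the settings shown.

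Other transcription regulators of germ cells gave a list of 13, with 0 called, 8 above 0 and a median log2 fold change of 0.02, whose sign turned in 2 of 13 alternatives. Kctd19, a partner of the meiotic exit factor ZFP541, had the smallest p. It stood at 544 and 546 CPM in control, against 421 and 438 CPM in vKO-labelled libraries, without overlap (log2 fold change -0.34, SE 0.11, edgeR adjusted p 0.208). Spz1, a leucine zipper gene and the most abundant of the list per kilobase, had a log2 fold change of -0.01 (adjusted p 0.986).

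**Figure D5:**
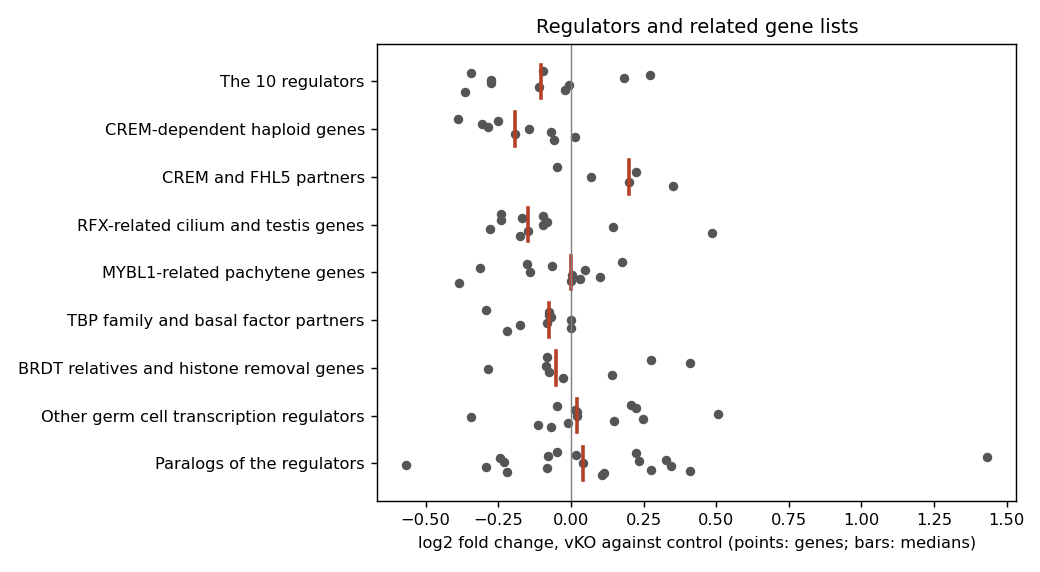
Log2 fold changes of the genes tested in each list, with 1 point per gene and a bar at the median. The medians lie between -0.19 for CREM-dependent genes and 0.20 for partners of CREM and FHL5, and none of the genes shown was called.

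The profiles of the regulators over the 4 libraries were set beside each other and beside listed genes of the same pathways (73 genes in all), using the root mean square difference of log2 (CPM + 0.5) after centring each gene. With only 4 libraries this is a description. The nearest gene to Tcfl5 was Brdt, and the reverse, at a difference of 0.0207. Both varied little over the libraries, with root mean square deviations of 0.0762 for Tcfl5 and 0.058 for Brdt. The nearest to Fhl5 and to Rfx3 was Kctd19, at 0.0324 and 0.0499. Mybl1 was nearest to Tdrd6 (0.0462), Rfx2 to the cilium regulator Foxj1 (0.0452), Rfx1 to Chd5 (0.0721), Crem to Dync2li1 (0.03325) and Tbpl1 to Ift88 (0.03). Foxj1 and Chd5 were lowest in control replicate 2 (deviations -0.322 and -0.48), as Rfx2 and Rfx1 were. That library had lower values for GC-rich transcripts, and the part of GC content in these likenesses was not tested. Pou5f2 had the least similar neighbour, Mybl1, at 0.0956.

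Marker lists of other cells were summed in each library. The summed level of 9 Sertoli cell genes stood at 981.5 and 1022 CPM in control, against 1418 and 1241 CPM in vKO-labelled libraries. All 9 had a log2 fold change above 0, with a median of 0.48, and Wt1, a Sertoli cell transcription factor named here after its value was seen, was called (edgeR adjusted p 0.0418). Summed Leydig cell genes stood at 249.2 and 304 CPM in control, against 412 and 299.7 CPM in vKO-labelled libraries, with 0 of 6 called. These Leydig sums overlapped between the groups, but all 6 genes had a log2 fold change above 0, with a median of 0.38. Gene by gene, the groups did not overlap for 4 of the 6, all higher in vKO-labelled libraries, against 22.7% of all genes tested. Summed spermatogonia genes stood at 114 and 111 CPM in control, against 135 and 121 CPM in vKO-labelled libraries, with 0 of 8 called and a median of 0.31. Round spermatid genes summed to 1539 and 1524 CPM in control and 1499 and 1525 CPM, with 0 of 7 called. Peritubular myoid genes stood at 42.9 and 69.8 CPM in control, against 70.1 and 48.0 CPM in vKO-labelled libraries, with a median of -0.01. Macrophage genes stood at 15.5 and 30.5 CPM in control, against 30.7 and 23.8 CPM in vKO-labelled libraries, with a median of 0.09. The groups overlapped for both lists, and 0 of 4 and 0 of 5 genes were called. Endothelial genes, with sums of 7.145 and 8.37 CPM in control and 10.98 to 12.1 CPM in vKO-labelled libraries, and erythrocyte genes, with 26.3 and 31.9 CPM and 38.0 to 41.1 CPM, did not overlap, and 0 of 4 and 0 of 3 were called. The part of these differences in the values of the regulators was not tested.

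Exons shared with neighbouring genes on the opposite strand could affect the counts of 4 of the regulators, by reads added or left out. The use of strand in the counting is not given in the sources used here. On the opposite strand Crem shares 472 bases of exon with Gm6225 (64 to 119 counts per library), Tbpl1 407 bases with Slc2a12 (77 to 158 counts), Tcfl5 234 bases with Col9a3 (620 to 741 counts) and Rfx1 42 bases with C330011M18Rik (147 to 174 counts). These counts are small beside those of the regulators, of which the lowest among these 4 was 2940 for Rfx1 in control replicate 2. They are reads assigned to the neighbours, so they do not measure how many reads were added to the regulators or left out. Pou5f2, inside Fam172a on the same strand, is a further case that strand would not separate.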

How the data were processed

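The deposited table gives raw counts for each gene in each of 4 libraries. Per the file headers, further columns hold the authors' own signal (mean count after division by size factors), log2 fold changes, their errors, and p-values, under column names that DESeq2 uses. HISAT2 2.1.0 and HTSeq 0.6.1p1 are named in the submitters' processing notes without a role. The genome build and the use of strand are not given in the sources used here. Recomputing the deposited mean from the counts gave a largest relative difference of 4.935e-10.

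Counts were tested with edgeR 4.0.16 (R 4.3.3, limma 3.58.1): filterByExpr, TMM scaling, a robust quasi-likelihood fit of genotype, a two-sided F test and Benjamini-Hochberg adjustment over 21132 genes, called under 0.05. Standard errors are the absolute log2 fold change divided by the square root of F, and 95% intervals use the fit's degrees of freedom. The script was tested on simulated data. Coordinates, lengths and GC content come from GENCODE M21 (GRCm38), matched by identifier for 25241 of 25265 genes. Replicates differed beyond counting noise (chi-square per degree of freedom 21.17 in control, 8.415 in vKO), so none was merged as a repeat deposit and n = 2 libraries per group.

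The genes and lists were chosen with earlier results of these data known. Named list genes are any called gene, else the one with the smallest p and the most abundant per kilobase. A gene that this rule names is not reported here. Wt1 and the motifs were chosen after the counts were seen, as was the longest transcript as a second length. Alternatives were DESeq2 1.42.0 (size factors; Wald test), library totals, a filter of 1 count in all, a filter of 10 counts in every library, a fit that is not robust, a replicate block, a GC offset, and each library left out.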

Additional observations from a re-analysis of the deposited data

How the results depend on the processing

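The median log2 fold change of the 10 regulators stayed below 0 under all 13 alternatives, between -0.15 and -0.04, and 0 of the 10 were called under 10 of them. A GC offset with the replicate block called 1 regulator, Pou5f2 (log2 fold change -0.43, adjusted p 0.0112), among 1268 genes in all. Calls also arose without control replicate 1 (Fhl5, Rfx1 and Rfx2) and without control replicate 2 (Pou5f2). Each of these 2 fits leaves 1 control library and called many more genes of the whole table than the fit of all 4 libraries. Over the fits that left out a library, in which the lone library is assumed to vary like the other group, the regulators called ran from 0 to 3, those at an unadjusted p under 0.05 from 0 to 4, all genes called from 35 to 1512, higher genes from 30 to 1048 and lower genes from 5 to 523. The cause was not tested.

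Against 83 genes called (59 higher, 24 lower), library totals alone gave 218 (181 and 37), a DESeq2 Wald test 217 (137 and 80, with 1 regulator at an unadjusted p under 0.05), the GC offset 146 with 71 lower, and the fit without robust estimation 15 lower. Replicate numbers were not taken as a pairing: no label explains them, and same-numbered libraries deviated with a correlation of 0.0792 (2 pairs). With the replicate block 1017 genes were called (627 and 390), with 0 regulators called and 5 at an unadjusted p under 0.05. Adding the GC offset to that block called 1268 (472 and 796), and Ythdf2 passed at a log2 fold change of 0.38 (adjusted p 0.0144). The causes were not tested.

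Signs changed without any call for Crem in 2 of 13 alternatives, Tcfl5 in 3, Brdt in 4, and Rfx1 and Rfx2 in 1 each. The other 5 regulators kept a log2 fold change below 0 in all 13. The regulators had 883 to 12265 counts per library, and each group had 2 libraries. What depth or more libraries would add to the precision was not tested.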

Other observations

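The letters GGACT, a common form of the sequence in which N6-methyladenosine is placed, were counted in the longest transcript of each gene. They occurred in 8 of the 10 regulators and in 85.9% of genes tested. Fhl5 and Pou5f2 had 0 matches in transcripts of 1171 and 1394 nucleotides, and Tcfl5 had the highest density, 1.8 per kilobase, against a median of 1.02 for all genes tested. The letters say nothing of whether a site is methylated.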
